A study of Mus musculus with 15 samples.

Results

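Fatty acid oxidation and ketone body formation were followed in mouse liver through 39 genes, picked by name from a total of 35540 gene symbols to which the deposited transcripts were summed. They comprise 2 regulators, 21 mitochondrial genes (5 for entry and the carnitine shuttle, 11 for the beta-oxidation cycle, 3 for electron transfer and 2 for ketone bodies), 10 peroxisomal genes, and 6 genes for acyl-CoA thioesterases and pantetheinase. All 39 passed the filter on low counts. RNA came from livers of mice fed a high-fat diet for 8 weeks, with 5 libraries for each of 3 genotypes: wild type (WT), a TXNIP mutant with the C247S change (C247S KI), and a Txnip knockout (KO). All 3 groups received the diet, so no group shows these genes on ordinary chow. TXNIP is the thioredoxin-interacting protein, and the C247S change removes the cysteine that bonds to thioredoxin. The sources used here do not give the animals' age, sex or strain, the tissues in which the knockout acts, or the feeding state and hour of collection. Whether every library had an animal of its own is likewise not stated, and p-values measure only how far these libraries spread, which may be technical in part. Each sample title starts with a number, whose meaning is not stated. The KO numbers form a range of their own, while those of WT and C247S KI overlap in range. Any difference in handling or origin that follows these numbers cannot be told apart from the knockout.

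Long-chain fatty acids are activated to acyl-CoA, carried into mitochondria on carnitine and shortened by repeated cycles of beta-oxidation, which feed electrons into the respiratory chain through the electron transfer flavoprotein. In the liver much of the resulting acetyl-CoA is turned into ketone bodies during fasting. Peroxisomes shorten very-long-chain and other poorly handled fatty acids, and thioesterases release free fatty acid from acyl-CoA. Many of these genes are targets of the nuclear receptor PPAR alpha, which responds to fatty acids.

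The libraries held 18047577 to 23379940 estimated counts, and levels are given as CPM, the count of a gene relative to the scaled library size. Txnip itself lay between 180 and 320 CPM in WT, between 99.9 and 280 CPM in C247S KI and between 70.9 and 123 CPM in KO libraries. It was lower in KO than in WT at 0.445-fold (log2 difference −1.17, adjusted p = 0.00887), with no overlap between these groups, while C247S KI 3 lay within the KO range. Transcript estimates do not show which exons the remaining Txnip reads came from. KO libraries stood apart from the other 10 on the first principal component (23.6% of the variance), at 18.6 to 44.7 against −42.1 to 0.03. WT 1 was the lowest on the second component, C247S KI 3 the highest on the third, and C247S KI 5 the lowest on the first. KO 5 was the highest on the first and second components, at 44.7 and 38.7. A clock index, the mean log2 CPM of 8 clock genes less that of 4 others, ran from 1.42 to 2.48 in WT and from 0.42 to 1.87 in C247S KI, and the KO libraries had 2.55 to 3.2. It therefore followed the KO genotype, and clock phase and knockout cannot be told apart in these data. The 6 tested hepatocyte markers summed to 87292–106951 CPM in WT, 72144–118292 CPM in C247S KI and 55667–82533 CPM in KO libraries. Alb, the gene of serum albumin, was lower in KO than in WT at 0.575-fold (adjusted p = 0.0294). It was the only call among the 6 in that comparison, where 3 had a positive and 3 a negative difference (median log2 difference −0.09). Of 30 tested markers of other cells, 0 were called in C247S KI against WT (beside 0.0862% of all genes). In KO against WT, 5 were lower (Cfd, Col3a1, Pecam1, Lyve1 and Ms4a1) and 1 was higher (Cela1), or 20%, beside 6.75% of all genes. In KO against C247S KI, 4 were lower (Cfd, Lyve1, Spp1 and Sox9, the last 2 from the cholangiocyte list) and 1 was higher (Cela1). That is 16.7% of the 30, beside 10.3% of all genes. The 7 Kupffer cell and macrophage markers, uncalled, all had a negative difference in C247S KI against WT, with a median of −0.78. Their unadjusted p was under 0.05 in 4 (57.1%, beside 9.85% of all genes). They summed to 127–347 CPM in WT, 63.2–169 CPM in C247S KI and 84.1–317 CPM in KO libraries. All 5 cholangiocyte markers, uncalled, had a positive difference in C247S KI against WT (median 0.80, unadjusted p under 0.05 in 3, or 60%). In KO against WT all 6 stellate cell markers had a negative difference (median −0.50). Of 5 sinusoidal endothelial markers, 3 had a positive and 2 a negative difference there (median 0.03). The 6 adipocyte markers summed to 3.57–25.6 CPM in WT, 7.87–48.6 CPM in C247S KI and 1.26–3.52 CPM in KO libraries, nearly all of it Cfd. The adipocyte-defining markers Adipoq, Plin1 and Lep were at or near 0 throughout, at no more than 0.311 CPM. The part of these differences in the results below was not tested. In bulk liver, fewer cells of a type and less RNA per cell cannot be told apart.

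Most genes of fatty acid oxidation showed no difference between genotypes that passed the test. Calls fell on the transporter Abcd2, the thioesterase Acot2, the acetyltransferase Crat and the thiolase Acaa2. With edgeR's quasi-likelihood test over all 13916 tested genes, 0 of the 39 genes were called in C247S KI against WT, where 0.0862% of all genes were called (0.0647% higher and 0.0216% lower). In that comparison 5 of the 39 (12.8%) had an unadjusted p under 0.05, beside 1371 of all genes (9.85%), and 0 were called by DESeq2 or limma-voom. In KO against WT, Abcd2 and Acot2 were lower and 0 genes were higher. These 2 calls are 5.13% of the 39, beside 6.75% of all genes tested (4.19% lower and 2.56% higher). In KO against C247S KI, Abcd2, Acot2 and Crat were lower and Acaa2 was higher, which makes 4 calls or 10.3% of the 39, beside 10.3% of all genes (5.85% lower and 4.41% higher). Without C247S KI 3, 5 of the 39 were lower and 5 higher in this comparison; without C247S KI 1 or 5, or KO 2, 3, 4 or 5, only 1 was lower (Abcd2) and 0 were higher. With the clock index as a covariate 0 were called in it, and Abcd2 alone was called in KO against WT, where Acot2 was also lost in 12 further fits. The share of called genes was thus near that of all genes in both KO comparisons. Groups did not overlap for 2 of the 39 genes in KO against WT (5.13%, beside 9.6% of all genes), for 5 in KO against C247S KI (12.8%, beside 9.67%) and for 0 in C247S KI against WT (beside 1.32%). The 2 KO comparisons share the KO libraries and are not independent of each other.

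The median log2 difference of the 39 genes was −0.08 in C247S KI against WT, −0.02 in KO against WT and 0.12 in KO against C247S KI. Over all tested genes the medians were 0.00, −0.01 and −0.03. The median in KO against C247S KI was 0.02 without C247S KI 3 and −0.04 when WT 1 and C247S KI 5 were left out as well, and that in KO against WT was 0.06 without WT 4 and 0.03 without KO 1, so neither direction was stable. Split by place, the 21 mitochondrial genes had medians of −0.17, 0.06 and 0.24 in the same order. The 10 peroxisomal genes had −0.08, −0.12 and 0.05. The 6 thioesterase and pantetheinase genes had 0.07, −0.20 and −0.33. In C247S KI against WT, 17 of the 21 mitochondrial genes had a negative difference, beside 6905 of all 13916 genes. In KO against C247S KI, 18 of the 21 had a positive difference, beside 6505 of all 13916 genes. Both counts rest on the same C247S KI libraries and are not independent of each other. Only 2 of these 21 passed the test in the latter comparison, 1 in each direction, and 0 in the former.

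**Figure D1:**
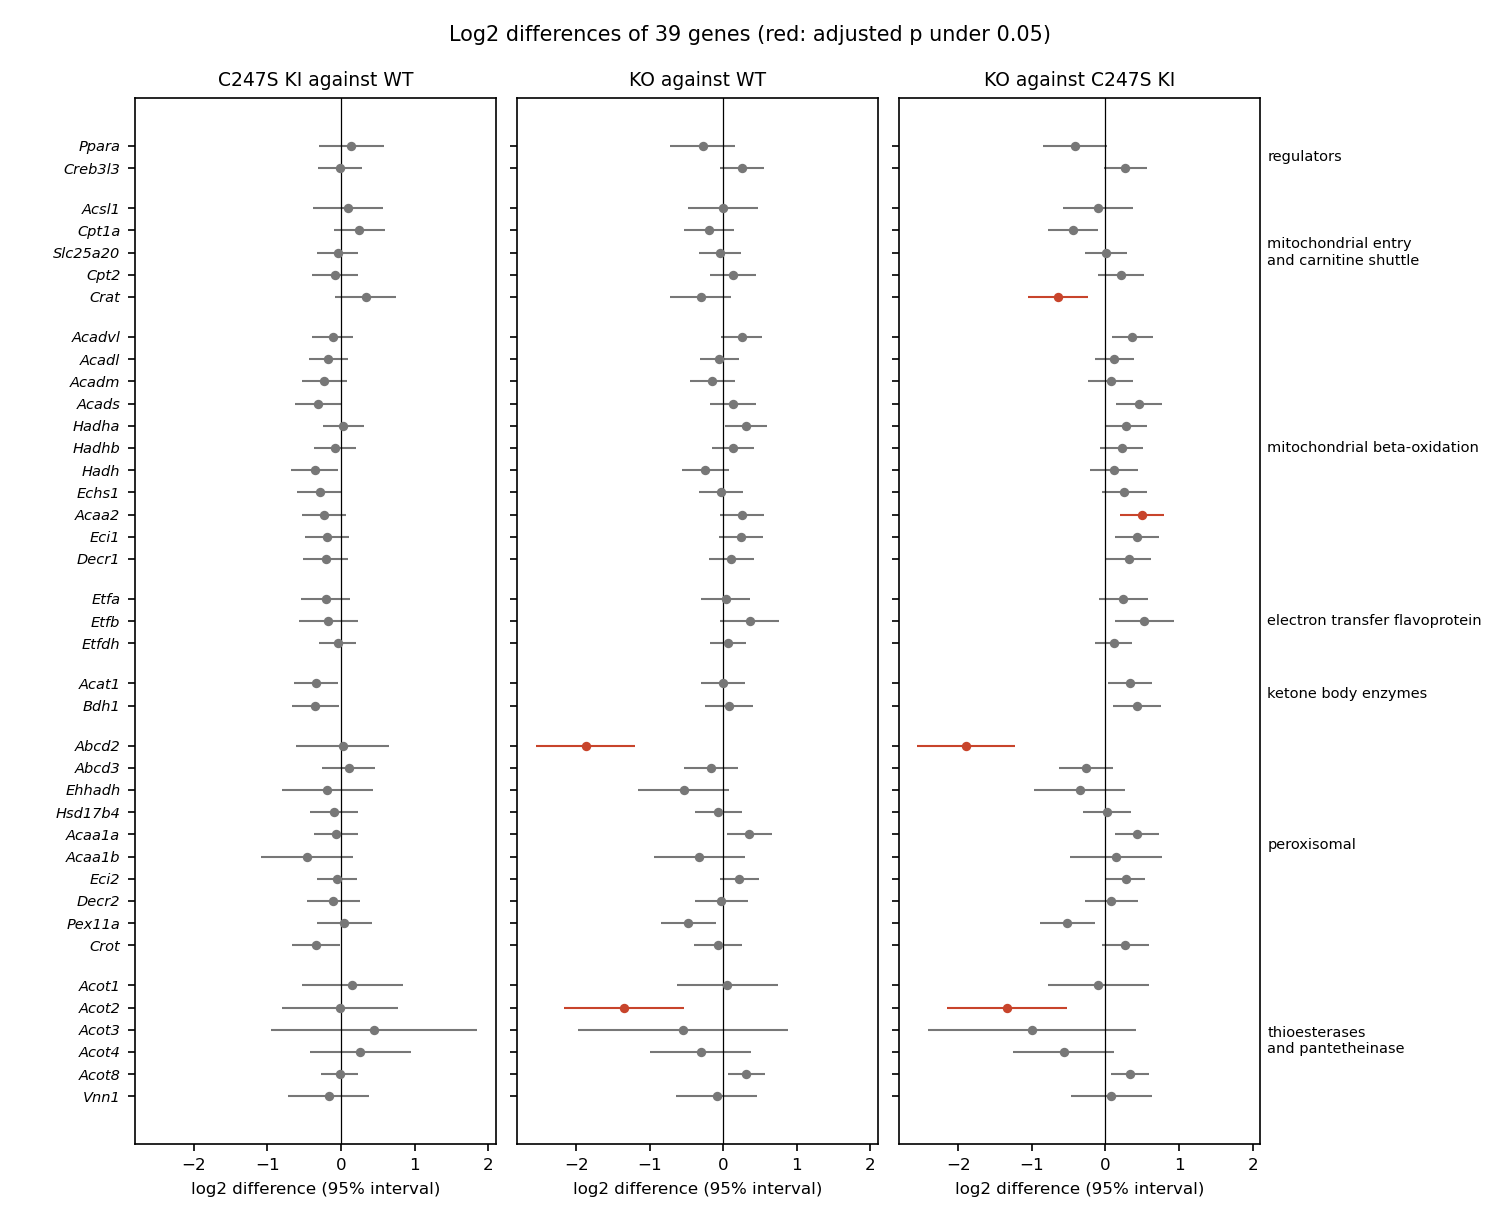
Log2 differences (x axis) of the 39 genes, ordered by role (y axis), in the 3 comparisons; points are the fitted differences, lines their 95% intervals, and red marks an adjusted p under 0.05. Abcd2 and Acot2 lie far to the left in both KO panels, and all 11 mitochondrial beta-oxidation genes lie to the right of 0 in the KO against C247S KI panel, with Acaa2 in red.

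The 2 regulators did not pass the test over all 15 libraries in any comparison. Without C247S KI 3, Creb3l3 was called higher in KO against C247S KI (log2 difference 0.38, adjusted p = 0.0472). Ppara, which encodes PPAR alpha, had 109 ± 27.9 CPM in WT (SD, n = 5), 120 ± 26.4 CPM in C247S KI and 90 ± 21.3 CPM in KO libraries. Its values ran from 65.2 to 136 CPM in WT and from 64.7 to 114 CPM in KO, so the groups overlapped over most of their range. Its log2 difference was −0.41 in KO against C247S KI (95% interval −0.86 to 0.03, adjusted p = 0.213) and 0.14 in C247S KI against WT (adjusted p = 0.845). Creb3l3 encodes a membrane-bound liver transcription factor that works with PPAR alpha in fasting. It had 362 ± 36.6 CPM in WT, 358 ± 75.1 CPM in C247S KI and 432 ± 43.6 CPM in KO, a log2 difference of 0.26 in KO against WT (adjusted p = 0.289).

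Of the 5 genes for mitochondrial entry, only Crat passed, and only in KO against C247S KI. Crat, carnitine acetyltransferase, moves acetyl and other short groups between CoA and carnitine. It measured 33.5, 66.6, 71.3, 71.9 and 56.2 CPM in WT 1 to 5. The C247S KI libraries 1 to 5 had 105, 54.5, 61.2, 90.4 and 66.5 CPM. The KO libraries 1 to 5 had 47.1, 48.8, 44.7, 51.6 and 49.6 CPM. Every KO library lay below every C247S KI library, while WT 1 lay below all of them and the other WT libraries above. Crat was 0.64-fold in KO against C247S KI (log2 difference −0.64, SE 0.20, adjusted p = 0.0452). In KO against WT it was 0.807-fold (log2 difference −0.31, adjusted p = 0.366), the lowest p of this role group there. The call in KO against C247S KI held in 8 of 25 alternative fits, and the difference was negative in all 25.

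The remaining carnitine-route genes had smaller differences. Cpt1a, the outer-membrane carnitine palmitoyltransferase that sets the rate of entry, had 526 ± 51.9 CPM in WT, 625 ± 157 CPM in C247S KI and 460 ± 48.7 CPM in KO libraries. Its log2 difference was −0.44 in KO against C247S KI (95% interval −0.79 to −0.10, adjusted p = 0.0944) and −0.19 in KO against WT (adjusted p = 0.52). C247S KI 3 had only 377 CPM of Cpt1a, against 584 to 771 CPM in the other 4 libraries of that group, and without C247S KI 3 the difference from KO passed (log2 difference −0.58, adjusted p = 0.00594). Acsl1, the main long-chain acyl-CoA synthetase of liver, measured 938 ± 188 CPM in WT and 936 ± 116 CPM in KO, a log2 difference of −0.00 (95% interval −0.48 to 0.47). The carrier Slc25a20 and the inner-membrane transferase Cpt2 had log2 differences between −0.08 and 0.21 in the 3 comparisons.

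Mitochondrial beta-oxidation held a single call by edgeR over all 15 libraries. Acaa2, a mitochondrial thiolase that splits off acetyl-CoA, measured 858, 809, 977, 999 and 797 CPM in WT 1 to 5. It measured 765, 843, 689, 909 and 566 CPM in C247S KI 1 to 5, and 946, 1191, 1001, 1200 and 972 CPM in KO 1 to 5. All KO libraries lay above all C247S KI libraries, while KO and WT overlapped. Acaa2 was 1.41-fold in KO against C247S KI (log2 difference 0.49, SE 0.14, adjusted p = 0.0356), a call that held in 14 of 25 alternative fits. In KO against WT its log2 difference was 0.26 (adjusted p = 0.292). None of the 10 other genes of the cycle passed in any comparison by edgeR over all 15 libraries. DESeq2 called Acadvl, Acads and Eci1 higher in KO against C247S KI (adjusted p = 0.0409, 0.0313 and 0.0322). There Acads also passed with the replicate block and without C247S KI 3. Eci1 passed with upper-quartile factors and without C247S KI 4.

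All 11 beta-oxidation genes had a positive difference in KO against C247S KI, from 0.07 for Acadm to 0.49 for Acaa2. In C247S KI against WT 10 of 11 had a negative one, from −0.36 for Hadh to 0.03 for Hadha. Both counts rest on the same C247S KI libraries. The sign of the smaller differences also depended on the scaling. In mean TPM, a length-scaled level defined below and not tested, 3 differences turned. Acadl (167 in KO, 172 in C247S KI), Acadm (310 and 337) and Hadh (303 and 313) were lower in KO, and the rest of the 11 higher. Hadh, the short-chain 3-hydroxyacyl-CoA dehydrogenase, had 444 ± 81.6 CPM in WT and 346 ± 65.7 CPM in C247S KI (adjusted p = 0.471). Hadha, the alpha subunit of the trifunctional protein, had 292, 381, 403, 435 and 389 CPM in WT 1 to 5 and 440, 523, 449, 494 and 453 CPM in KO 1 to 5. These groups did not overlap, but the difference missed the threshold (log2 difference 0.31, 95% interval 0.03 to 0.59, adjusted p = 0.167). Its partner subunit Hadhb had a log2 difference of 0.13 there (adjusted p = 0.601). The acyl-CoA dehydrogenases, which start the cycle for chains of different length, had log2 differences in KO against WT of 0.25 for Acadvl (very long chains), −0.05 for Acadl (long), −0.15 for Acadm (medium) and 0.14 for Acads (short), all uncalled. Acadvl and Eci1, an isomerase for unsaturated chains, did not overlap between KO and C247S KI libraries, with adjusted p = 0.0909 and 0.0618. Short words of sequence shared with other genes made up 66.1% of the main Hadhb transcript and 32.7% of that of Acadvl. The division of Hadhb and Acadvl reads between genes is therefore uncertain. Within C247S KI, library 3 was the lowest for Acadl, Acadm, Hadhb, Hadh and Eci1, and library 5 for the other beta-oxidation genes.

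The genes for electron transfer and ketone bodies gave 0 calls by edgeR. Etfb encodes a subunit of the electron transfer flavoprotein, which takes electrons from the acyl-CoA dehydrogenases. It had 317 ± 65.1 CPM in WT, 282 ± 82.2 CPM in C247S KI and 407 ± 58.2 CPM in KO libraries. Short words of sequence shared with Gm45233 made up 68% of its main transcript, so the division of Etfb reads between genes is uncertain. The log2 difference of Etfb was 0.36 in KO against WT (adjusted p = 0.275) and 0.53 in KO against C247S KI (adjusted p = 0.0872). The partner subunit Etfa and the dehydrogenase Etfdh, which passes the electrons on to ubiquinone, had 0.04 and 0.06 in KO against WT. Acat1, the mitochondrial acetoacetyl-CoA thiolase, measured 497 ± 53.3 CPM in WT, 393 ± 80.8 CPM in C247S KI and 495 ± 40 CPM in KO. Bdh1, which interconverts acetoacetate and 3-hydroxybutyrate, measured 313 ± 58.1, 245 ± 45.1 and 330 ± 36.4 CPM in the same order. Both had a log2 difference near −0.34 in C247S KI against WT (−0.34 for Acat1, adjusted p = 0.471, and −0.35 for Bdh1, adjusted p = 0.478). Between KO and WT they differed by −0.01 and 0.08. DESeq2 called Etfb and Bdh1 higher in KO against C247S KI (adjusted p = 0.0497 and 0.0429), where edgeR did not.

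The clearest difference among the 39 genes was that of Abcd2 in the peroxisomal membrane. Abcd2 (chr15:91145871-91191799, minus strand, GRCm38) encodes a half-transporter that brings very-long-chain acyl-CoA into the peroxisome. Its levels were 23.2, 26.1, 18.9, 25.9 and 15.7 CPM in WT 1 to 5 and 40.6, 18.6, 6.56, 18.9 and 26.5 CPM in C247S KI 1 to 5. In KO 1 to 5 they were 6.4, 6.29, 5.92, 6.12 and 5.29 CPM. The KO libraries lay close together and below every other library, with C247S KI 3 just above them. Abcd2 was 0.273-fold in KO against WT (log2 difference −1.87, SE 0.32, adjusted p = 0.00287) and 0.269-fold in KO against C247S KI (log2 difference −1.89, SE 0.32, adjusted p = 0.00155). Between C247S KI and WT the log2 difference was 0.02 (95% interval −0.61 to 0.65). The KO against WT call held in all 25 alternative fits, the clock index covariate included, and the KO against C247S KI call in 24, being lost with that covariate (adjusted p = 0.099). Words of 31 bases shared with transcripts of other genes made up 1.5% of its main transcript, so few of its reads were open to division between genes.

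**Figure D2:**
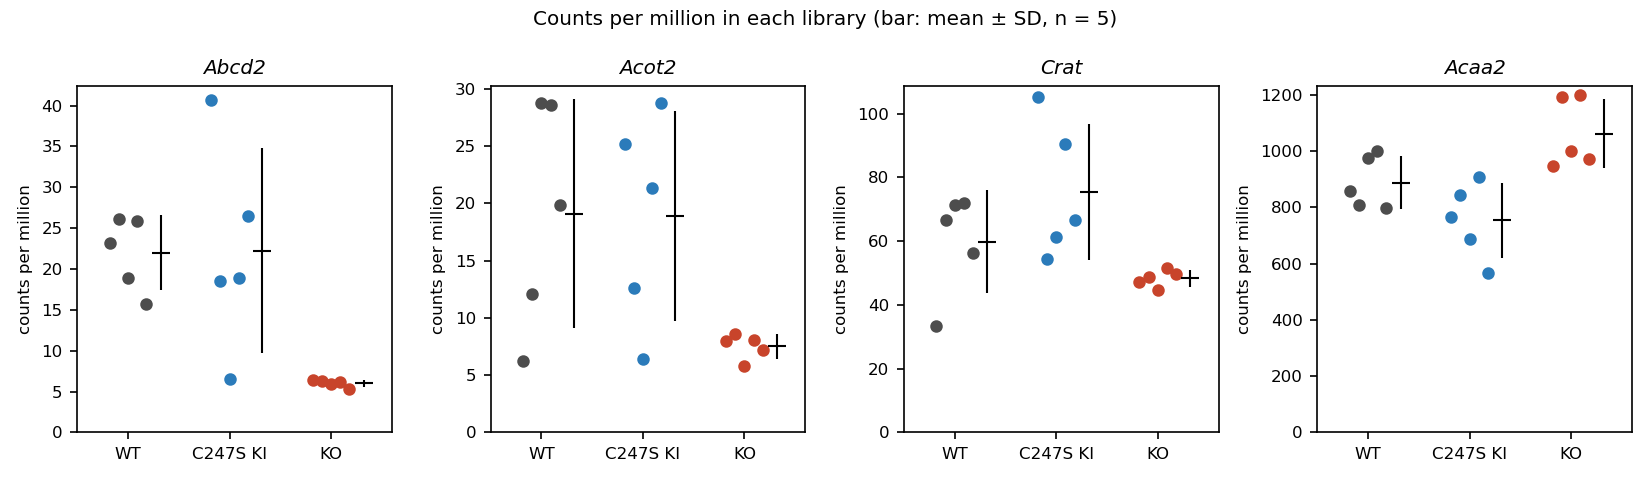
CPM (y axis, from 0) of the 4 genes called in a KO comparison, in each of the 5 libraries of each genotype (x axis); bars are means ± SD. KO values of Abcd2 and Crat are tightly grouped, and those of Acot2 overlap WT 1 and C247S KI 3.

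The other peroxisomal genes did not share this difference in size. Abcd3, the related and far more abundant half-transporter, had 446 ± 46.1 CPM in WT, 479 ± 130 CPM in C247S KI and 398 ± 56.3 CPM in KO, a log2 difference of −0.16 in KO against WT (95% interval −0.53 to 0.20). The open reading frames of Abcd2 and Abcd3 aligned with 57.6% identity. Pex11a, which takes part in peroxisome division, had log2 differences of −0.48 in KO against WT (adjusted p = 0.112) and −0.52 in KO against C247S KI (adjusted p = 0.0696). Ehhadh, the peroxisomal bifunctional enzyme, had 264 ± 74.1 CPM in WT, 232 ± 111 CPM in C247S KI and 182 ± 16 CPM in KO (log2 difference from WT −0.54, adjusted p = 0.286). Acaa1a and Acaa1b are near copies of the peroxisomal thiolase gene, with open reading frames 96.5% identical, and 43.8% of the 31-base words of Acaa1a occur in Acaa1b, so the division of their reads is uncertain. Acaa1a had a log2 difference of 0.36 (adjusted p = 0.137) and Acaa1b of −0.32 (adjusted p = 0.554) in KO against WT. Without WT 1, C247S KI 3 and C247S KI 5, Acaa1b (−0.47, adjusted p = 0.0385) and Pex11a (−0.58, adjusted p = 0.0137) were also called lower in KO against WT. Crot, which hands medium-chain acyl groups to carnitine for export, had the lowest p of the group in C247S KI against WT (log2 difference −0.34, adjusted p = 0.492). Hsd17b4, Eci2 and Decr2 lay between −0.11 and 0.27 in the 3 comparisons.

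Acot1 to Acot4 are neighbouring genes on chromosome 12, from Acot2 at chr12:83987861-83993873 to Acot3 at chr12:84052144-84060402 (GRCm38, plus strand). Acot1 encodes a cytosolic enzyme and Acot2 its mitochondrial counterpart. Their open reading frames are identical at 1183 of 1239 aligned bases (95.5%), and 29.8% of the 31-base words of Acot2 also occur in Acot1. The stretch of 90 bases shown for each is where the pair differ most densely, at 14 of the 56 differing bases of the alignment, so the remainder of the frame is more alike still. It was read from the most-counted transcript of each gene in GENCODE M21, and capitals mark the differing bases. Within the aligned frame, a read can be told apart between the pair only where it crosses such a base. Over the whole Acot2 transcript, 38% of the 31-base words occur in transcripts of other genes, Acot1 included.
Acot1: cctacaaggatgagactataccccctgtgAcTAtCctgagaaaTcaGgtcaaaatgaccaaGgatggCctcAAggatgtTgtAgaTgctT
Acot2: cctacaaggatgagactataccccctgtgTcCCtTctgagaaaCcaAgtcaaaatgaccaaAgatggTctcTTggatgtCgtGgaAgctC

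Acot2 was the second gene called in KO against WT. It measured 6.26, 12.1, 28.8, 28.6 and 19.8 CPM in WT 1 to 5 and 25.2, 12.6, 6.44, 21.4 and 28.8 CPM in C247S KI 1 to 5. The KO libraries 1 to 5 had 7.96, 8.55, 5.78, 8.03 and 7.22 CPM. WT 1 and C247S KI 3 lay inside the KO range, so the groups overlapped. Acot2 was 0.394-fold in KO against WT (log2 difference −1.34, SE 0.39, adjusted p = 0.0458) and 0.397-fold in KO against C247S KI (adjusted p = 0.036). The calls held in 12 and 14 of 25 alternative fits, and the difference was negative in all of them. Acot1 itself had 51.7 ± 19.4 CPM in WT, 57.5 ± 33.6 CPM in C247S KI and 53.7 ± 12.6 CPM in KO (log2 difference from WT 0.06, 95% interval −0.63 to 0.74).

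Since reads of the pair were divided before deposit, their sum and the Acot2 share of it are also given, a choice made after seeing the data. The sum was 70.8 ± 28.9 CPM in WT, 76.3 ± 39.1 CPM in C247S KI and 61.2 ± 13.4 CPM in KO. The difference in Acot2 between the WT and KO means, 19.1 and 7.51 CPM, was smaller than the SD of the WT sum, so the sum could hardly show it. Acot2 made up 14.2%, 28.7%, 28.8%, 28.3% and 29.6% of the sum in WT 1 to 5, and 29%, 26.4%, 19.7%, 16% and 35.7% in C247S KI 1 to 5. In KO 1 to 5 it made up 13%, 10.4%, 11.1%, 12.7% and 15.3%. All KO libraries lay below all C247S KI libraries and below 4 of 5 WT libraries. The share averaged 12.5 ± 1.92% in KO, 25.9 ± 6.54% in WT and 25.4 ± 7.77% in C247S KI. It restates the Acot2 and Acot1 estimates and is no separate evidence.

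**Figure D3:**
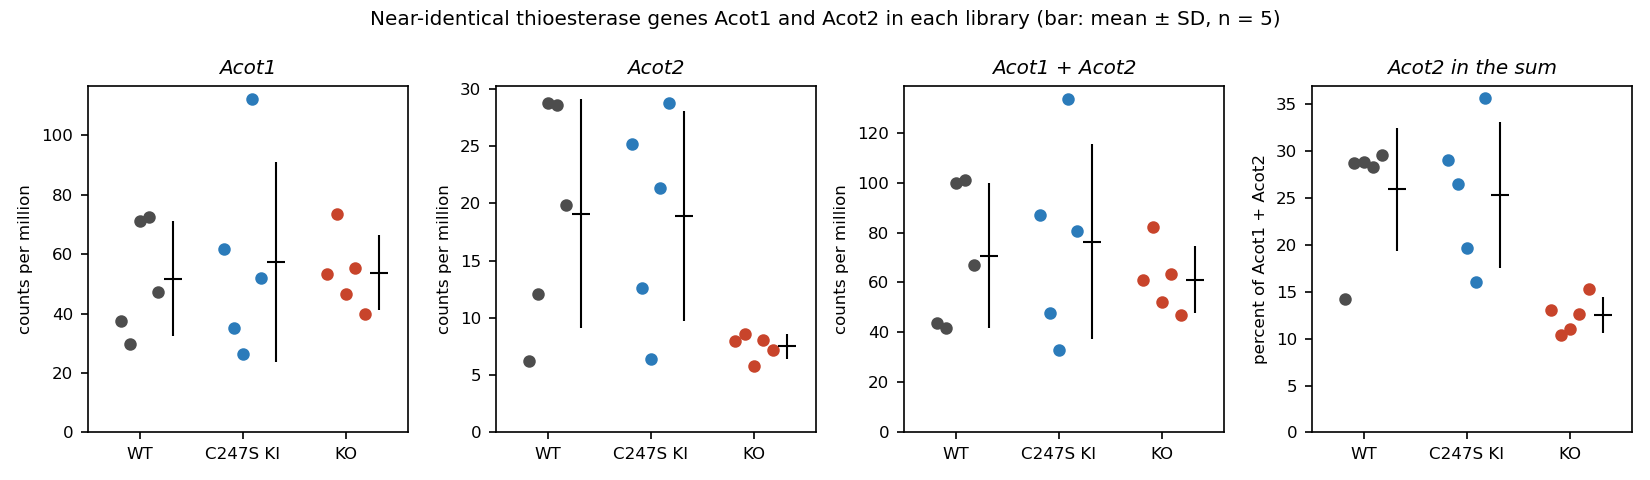
CPM of Acot1, Acot2 and their sum, and the percent of that sum assigned to Acot2 (y axes, from 0), in each library of each genotype (x axis); bars are means ± SD, n = 5. The sums overlap between genotypes, while the Acot2 share is 10.4% to 15.3% in KO libraries.

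The other thioesterases varied widely within each genotype. Acot3 ran from 3.52 to 23.2 CPM in WT, from 3.02 to 39.5 CPM in C247S KI and from 2.39 to 26.1 CPM in KO libraries. Its log2 difference in KO against WT, −0.55, had a 95% interval from −1.97 to 0.87, the widest of the 39 genes in that comparison. Acot4 had 65.5 ± 22.3, 78.3 ± 37.1 and 52.9 ± 15.3 CPM in WT, C247S KI and KO, with adjusted p = 0.616 against WT. It had the lowest p of the group in C247S KI against WT (log2 difference 0.26, adjusted p = 0.809). Acot8, a peroxisomal thioesterase, was steadier, at 17.8 ± 2.71, 17.6 ± 1.99 and 22.1 ± 2.51 CPM, and its log2 difference in KO against WT was 0.32 (95% interval 0.06 to 0.57, adjusted p = 0.121). Vnn1, the pantetheinase that breaks down a precursor of CoA, had 81.4 ± 25, 72.4 ± 24 and 76.4 ± 19.6 CPM. It spanned 55.3 to 122 CPM in WT and 49.3 to 94.2 CPM in KO.

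Divided by transcript length, as TPM (counts per transcript length, scaled to the same total in each library), the 39 genes ranged in WT from 1541 ± 468 TPM for Acaa1b to 6.32 ± 1.4 TPM for Abcd2. Acaa2 (926 ± 83.5 TPM) and Etfb (578 ± 84.2 TPM) followed Acaa1b. The levels of Acaa1b and Etfb depend on the uncertain division of their reads between genes. The means of Acaa1b and Acaa2 lay further apart than 1 SD of each added together. From Etfa at 402 ± 47 TPM through Acsl1, Hadh, Eci2 and Acadm to Acadvl at 359 ± 64.3 TPM the levels were within 1 SD of each other. Abcd2, Acot2 (13.9 ± 7 TPM) and Acot3 (11.8 ± 6.02 TPM) were the 3 lowest in WT, and Crat (36.3 ± 10.1 TPM) was the sixth lowest. The 3 genes called lower in KO thus lay among the 6 least expressed of the 39, whereas Acaa2, called higher, ranked second. In KO libraries Abcd2 measured 1.6 ± 0.155 TPM beside 168 ± 23.8 TPM for Abcd3.

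Single libraries stood out across many of the 39 genes. C247S KI 3 was the lowest of its group for 24 genes and the lowest of all 15 libraries for 19. It lay below the mean of the 15 libraries for 34 of 39, with a median deviation of −0.48 on the log2 CPM scale, and of −0.45 in mitochondrial, −0.62 in peroxisomal and −0.96 in thioesterase and pantetheinase genes. WT 4 stood on the other side, above the mean for 38 of 39 genes, with a median deviation of 0.29. Acaa1b showed the span: WT 1 to 5 had 894, 1775, 1993, 1942 and 1399 CPM, C247S KI 1 to 5 had 1653, 1305, 364, 1211 and 1270 CPM, and KO 1 to 5 had 1093, 1263, 1211, 1581 and 1247 CPM. The 5 KO libraries lay inside the WT range there. The median SD of log2 CPM over the 39 genes was 0.16 in KO, beside 0.27 in WT and 0.31 in C247S KI. The SD was smaller in KO than in WT for 32 genes (82.1%, beside 64.9% of all genes tested) and smaller than in C247S KI for 35 (89.7%, beside 67.5%). Without WT 1 the former count was again 32 (82.1%, beside 54.8% of all genes). Without C247S KI 3 the latter count was 32 (beside 58% of all genes), and without C247S KI 3 and C247S KI 5 it was 19 (48.7%, beside 43.7%). These libraries were picked because they stood apart. Leaving them out lowered the median SD of C247S KI from 0.31 to 0.20 and 0.15.

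**Figure D4:**
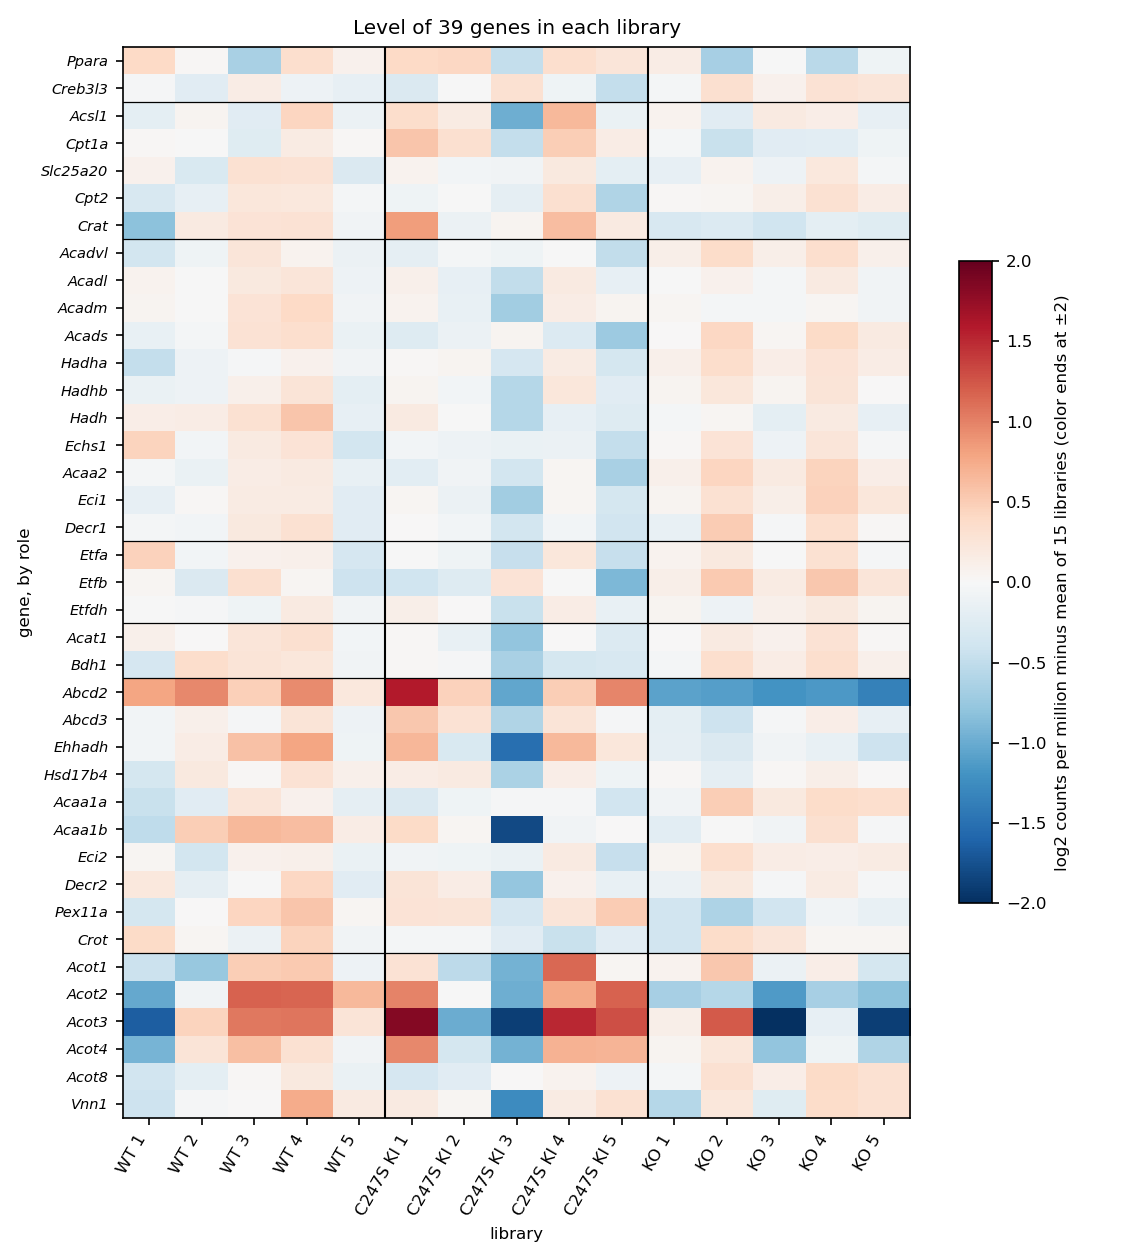
Log2 CPM of the 39 genes (rows, by role) in the 15 libraries (columns), as the difference from each gene's mean over all libraries; blue is lower and red higher. The Abcd2 row is blue in all 5 KO libraries, and the C247S KI 3 column is blue for 34 of 39 genes.

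PPAR alpha binds, with its partner RXR, to a direct repeat of the hexamer AGGTCA with a single base between the copies, AGGTCANAGGTCA. Promoter sequences from RefSeq (GRCm38.p6), 250 bases before to 50 after a gene start, were on hand for 32 of the 39 genes in 37 windows. They did not include Abcd2, Crat or Acaa2. On either strand, a match with at most 2 mismatches over the 12 hexamer bases stood in 5 of 37 windows (13.5%), beside 1268 of 32851 windows of all genes (3.86%). With at most 1 mismatch the counts were 0 of 37 and 182 of 32851 (0.55%). The 5 genes were Acot4, Creb3l3, Echs1, Etfa and Slc25a20, and 0 of them were called in any comparison by edgeR over all 15 libraries. For the 4 in which the match lay before the RefSeq start, 60 bases around it are shown, 5′ to 3′ on the gene's strand, with the match in capitals. The Creb3l3 match belongs to an alternative RefSeq start 6283 bases inside the gene as GENCODE places it, and the window at the gene's outer start held no match. The Echs1 start lay 55 bases inside the GENCODE gene, and those of Acot4 and Etfa were the same in both. In Acot4 (chr12:84038319-84038378, plus strand) and Etfa (chr9:55512284-55512343, minus strand) the repeat reads on the opposite strand. In Creb3l3 (chr10:81092764-81092823, minus strand) and Echs1 (chr7:140116468-140116527, minus strand) it reads on the gene's own strand. A match is a resemblance of letters and does not show binding.
Acot4: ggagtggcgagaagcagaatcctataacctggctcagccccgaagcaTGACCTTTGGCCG
Creb3l3: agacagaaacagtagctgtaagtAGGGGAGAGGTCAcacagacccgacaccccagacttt
Echs1: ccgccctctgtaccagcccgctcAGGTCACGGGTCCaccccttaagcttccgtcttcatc
Etfa: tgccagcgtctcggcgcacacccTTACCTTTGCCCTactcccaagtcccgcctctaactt

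Of 40 other genes of the same pathway, outside the 39, 0 passed in C247S KI against WT. In KO against WT 6 were lower and 1 was higher (17.5%, beside 6.75% of all genes), and in KO against C247S KI 10 were lower and 2 higher (30%, beside 10.3%). Acacb, the acetyl-CoA carboxylase whose malonyl-CoA restrains Cpt1a, lay at 41.2 to 151 CPM in WT, 90.5 to 301 CPM in C247S KI and 23.1 to 33.9 CPM in KO. It was 0.264-fold in KO against WT (log2 difference −1.92, adjusted p = 0.00219), with no overlap. The synthetases Acsl5 (0.587-fold, adjusted p = 0.0074), Acsl3 (0.545-fold, adjusted p = 0.0122) and Acsl4 (0.608-fold, adjusted p = 0.0273) were lower in KO than in WT, while their relative Acsl1, above, was not called. Slc16a1, a carrier of lactate and ketone bodies, was also lower (0.695-fold, adjusted p = 0.0439), and the fatty acid transporter Slc27a1 was higher (1.78-fold, adjusted p = 0.0249). In KO against C247S KI, Acacb, Acsl4, Acsl5, Acsl3, Slc16a6 and Acaca had the lowest p and all were lower, from 0.145-fold for Acacb to 0.549-fold for Acaca.

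Of 23 other PPAR alpha targets and cofactors, Txnip among them, 0 passed in C247S KI against WT, 6 were lower and 0 higher in KO against WT (26.1%, beside 6.75% of all genes), and 9 were lower and 0 higher in KO against C247S KI (39.1%, beside 10.3%). Without Txnip, the gene knocked out, 5 of 22 (22.7%) and 8 of 22 (36.4%) were lower. Pdk4, the kinase that shuts off pyruvate oxidation when fat is burned, lay at 7.3 to 99.6 CPM in WT and 2.68 to 3.78 CPM in KO (log2 difference −3.83, adjusted p = 0.00181). Cd36, a fatty acid uptake receptor, lay at 79.5 to 183 CPM in WT and 18.2 to 39.6 CPM in KO (0.252-fold, adjusted p = 0.00237). Hilpda and Plin2, which encode lipid droplet proteins, were 0.459-fold and 0.469-fold in KO against WT (adjusted p = 0.00831 and 0.00876). The median log2 difference in KO against WT was −0.42 for the 22 genes without Txnip (−0.47 with it), beside −0.02 for the 39 and −0.01 for all genes. Of 18 genes for mitochondrial import, matrix and respiratory chain, 2 were higher in each KO comparison, Tomm40 and Timm44, both import components (1.43-fold and 1.27-fold against WT). Of 19 genes for peroxisome assembly and matrix, 1 was higher in each KO comparison, Pex6, an ATPase that recycles the import receptor (1.43-fold against WT, adjusted p = 0.0184), and 0 were lower. Of 9 tested fasting and feeding genes, Insig2, Igfbp1 and Fasn were lower in both KO comparisons and 0 were higher. Of 12 tested clock genes, 2 were higher in KO against WT (Dbp and Ciart), and 4 were higher and 4 lower in KO against C247S KI.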

How the data were processed

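Bulk liver RNA sequencing of 15 libraries (5 WT, 5 C247S KI, 5 KO) was analysed from the deposited estimated counts per transcript, which were already whole. The submitters' processing notes name Trimmomatic 0.39, kallisto 0.50.1, DESeq2 and the mm10 build. Reads matching several transcripts had been divided among them by the authors, whose transcript set the labels do not name. Identifiers were matched to GENCODE M21 (114331 of 115911, 98.64%) and summed per symbol, without the unmatched 0.366% to 0.459% of counts. Genes were kept by filterByExpr (minimum count 10, minimum total 15). The test was edgeR 4.0.16 in R 4.3.3 (TMM factors, 1 quasi-likelihood fit of all libraries), with Benjamini-Hochberg adjusted p below 0.05 over 13916 genes. Log2 CPM had a prior count of 2, SE was the log2 difference over the root of F, and TPM used GENCODE exon lengths. The procedure was tested on simulated data.

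The 39 genes, gene lists and tests were chosen with earlier results of these data known. Named are Txnip, every called gene of the 39, the lowest p of a role group without calls, the extremes, and up to 6 called genes per list. Alternative fits were DESeq2 1.42.0, limma-voom (limma 3.58.1), other scalings (RLE, upper quartile), other filters (none, or a mean count of 50), each pair of groups alone, a replicate block, a clock index covariate and each library left out. After seeing the data, WT 1, C247S KI 3 and C247S KI 5 were also left out together. No library was a copy of another (chi-square per degree of freedom at least 20.9 in 30 same-group pairs).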

Additional observations from a re-analysis of the deposited data

Results flagged for a closer look

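In groups of 5 libraries, 5 of 117 gene and genotype combinations had a library separated from the rest by more than 0.71 of the group's range on the log2 scale, a mark that chance passes in about 1 of 20 groups. In 3 of them the library was C247S KI 3, the lowest of its group: Acaa1b at 364 CPM (next lowest 1211 CPM), Vnn1 at 30.6 CPM (next 75.3 CPM) and Ppara at 74 CPM (next 122 CPM). C247S KI 5 was the lowest of its group for Echs1, at 156 CPM (next 199 CPM). WT 4 was the highest of its group for Etfdh, at 268 CPM (next 235 CPM).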

How the results depend on the processing

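Depth limits little here: calls depend on the spread between 5 libraries a group, and 95% intervals of uncalled genes often reach 0.5 on the log2 scale, so smaller differences could go undetected. In C247S KI against WT, 0 of the 39 genes were called in all 25 alternative fits, while calls among all genes went from 12 to 65 (DESeq2), 20 (no count filter), 29 (clock index covariate) and 6 (only the groups compared), and ran from 4 to 24 with a library left out. In KO against WT, genes of the 39 called lower went from 2 to 1 with limma-voom or the clock index, and to 4 without WT 1, C247S KI 3 and C247S KI 5. The count was 1 to 2 with a library left out, and it was 1 without WT 3, 4 or 5, C247S KI 2 or 4, or any KO library. All-gene calls went from 939 to 1505 (DESeq2), 161 (clock index) and 1542 (without the 3 libraries), and ran from 521 (without KO 2) to 1259 (without C247S KI 3). In KO against C247S KI, genes called higher went from 1 to 7 (DESeq2), 2 (upper-quartile factors) and 0 (no count filter, only the groups compared, the clock index, or without the 3 libraries), and ran from 0 to 5. Genes called lower went from 3 to 1 (limma-voom), 0 (clock index) and 6 (without the 3 libraries), and ran from 1 to 5. Both counts were 5 without C247S KI 3, and the lower count was 1 without C247S KI 1, 4 or 5 or any KO library. The higher count was 0 without WT 2, C247S KI 1 or 5, or KO 2, 3, 4 or 5, and 2 without C247S KI 4 or KO 1. All-gene calls went from 1427 to 98 (clock index) and ran from 784 (without KO 2) to 2272 (without C247S KI 3). With the clock index, which follows the genotype, the median of the 39 genes moved from −0.02 to 0.20 in KO against WT and from 0.12 to 0.45 in KO against C247S KI, while it ran from −0.07 to 0.06 and from 0.02 to 0.21 with a library left out, and was −0.04 in the latter without the 3 libraries. With the clock index the signs of Slc22a5 (0.10), Nr1d1 (−0.23), Nfil3 (0.16) and Cry1 (0.030) turned in KO against C247S KI. Under RLE and upper-quartile factors no called gene named in the text changed sign. The cause of these changes was not tested.

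Same-numbered libraries correlated between −0.14 and 0.38 over 15 pairs, above 0.1 in 4 of them. Differently numbered libraries were not compared, so these values do not show whether the numbers pair the libraries. With the replicate number as a block, 1 of the 39 genes was higher (Acot8) and 1 lower (Abcd2) in KO against WT, 5 were higher and 1 lower in KO against C247S KI, and 6 genes of all tested were called in C247S KI against WT.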
